A study of Mus musculus with 20 samples.

Results

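The nuclear effectors of canonical Wnt signalling and the genes that feed back on it were followed across the chromatin of Nkx2.1-lineage cells of the mouse neocortex, with and without the transcription factor gene Tcf4. The group holds 8 genes of 21911 protein-coding genes: Tcf7l2, Tcf7l1, Tcf7 and Lef1, which encode the DNA-binding TCF/LEF factors, Ctnnb1, which encodes their coactivator beta-catenin, Apc and Axin2, which encode scaffolds of the complex that destroys beta-catenin, and Apcdd1, which encodes a membrane inhibitor of the pathway. Their regions were those of the ATAC-seq consensus table that carry the gene's symbol, 36 regions of 32120 in all. To these were added every peak within each gene body and 20 kb on each side, and the 6 footprint motifs of 1205 that are named TCF7, TCF7L1, TCF7L2 or LEF1. The regions, peaks and motifs were taken by name and position and not by a measured value. The 8 genes themselves were chosen with earlier results of these data known. The paper had linked regions that closed in Tcf4 cKO to Tcf7l2, among other genes.

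In canonical Wnt signalling, ligands bound to Frizzled and LRP receptors stop the destruction complex, beta-catenin enters the nucleus, and it joins TCF/LEF factors at sites with the core CTTTGA. Without beta-catenin the same factors recruit corepressors and hold their targets down. Axin2 and Apcdd1 are themselves Wnt targets that dampen the pathway, and Axin2 is a standard readout of it. In oligodendrocyte precursors the pathway is known to restrain differentiation, and Tcf7l2 is required for the step to myelinating cells. A point of naming matters here. The protein of Tcf7l2 was long called TCF4 in the Wnt literature, but the gene deleted in this study, Tcf4, encodes a different protein, a basic helix-loop-helix E-protein also called E2-2, which binds E-boxes (CANNTG).

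The cells were GFP-positive cells sorted from the dissected neocortex of pups at postnatal day 7 or 8. WT pups carried Nkx2.1-Cre and the Ai3 reporter, and Tcf4 cKO pups carried Nkx2.1-Cre, the Ai3 reporter and floxed Tcf4 alleles (Tcf4 f/f), so that Cre and reporter were shared by both genotypes and Tcf4 was lost from the progeny of Nkx2.1-expressing radial glia. In the Tcf4-tag line the endogenous Tcf4 protein carries a C-terminal Flag/HA tag that appears where Nkx2.1-Cre has acted, and an anti-Flag antibody was used. ATAC-seq and Cut&Tag for H3K4me1 (a mark of enhancers), H3K27ac (active enhancers and promoters) and H3K27me3 (Polycomb repression) had 2 libraries per genotype, and the anti-Flag Cut&Tag had 2 libraries. The labels do not say how many pups entered a library, so p-values measure the spread between these libraries alone.

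The peak lists held 54162 to 72308 peaks per ATAC-seq library, 51510 to 72790 for H3K4me1, 22026 to 28413 for H3K27ac, 15085 to 19182 for H3K27me3, and 28606 and 16834 for the 2 Tcf4-tag libraries. Read depth is unknown, since the lists give fold enrichments and not reads, and the deletion in Tcf4 was not checked here. The sorted lineage can hold several cell types. A promoter in the consensus table was found for 3 of 5 marker genes of oligodendrocyte precursors, 2 of 5 of myelinating oligodendrocytes, 4 of 5 of astrocytes, 3 of 6 of interneurons, 1 of 4 of projection neurons, 2 of 4 of endothelial cells and 1 of 4 of microglia. Each of these 3 interneuron and 2 endothelial genes had a promoter region with H3K27me3 in both WT libraries and none with H3K27ac in both, so an open promoter does not show that the cell type is present. H3K27ac in both WT libraries was found for 1 precursor, 2 myelinating and 1 astrocyte gene, and for 0 of projection neurons and microglia. The paper's single-cell RNA-seq of this lineage did report interneurons and endothelial cells. In such bulk libraries fewer cells of a type and less signal per cell cannot be told apart.

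The regions on which the results turn are shown first, as the 151 bases around the centre of each on the plus strand of GRCm38 (mm10). Capitals mark the TCF/LEF core CTTTGA on either strand (TCAAAG on the reverse) and the E-box CANNTG, of which CAGCTG is one form. The first pair comes from the 2 Tcf7l2 regions that carried Tcf4 peaks and were less open in Tcf4 cKO, one inside an intron at chr19:55756810-55756960 and one beyond the 3′ end of the gene at chr19:55951597-55951747. The third is a region annotated to Ctnnb1 inside an intron of the neighbouring gene Ulk4, at chr9:120998787-120998937. The Lef1 windows are the region lost from the Tcf4 cKO peak lists, at chr3:131016335-131016485, and a nearer one under H3K27me3, at chr3:131085121-131085271. The Axin2 windows are the 2 intergenic regions that were more open in Tcf4 cKO, at chr11:108900947-108901097 and chr11:108973815-108973965.
Tcf7l2 intronic: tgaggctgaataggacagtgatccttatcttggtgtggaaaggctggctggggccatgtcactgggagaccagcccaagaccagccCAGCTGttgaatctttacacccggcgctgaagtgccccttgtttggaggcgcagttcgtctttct
Tcf7l2 downstream: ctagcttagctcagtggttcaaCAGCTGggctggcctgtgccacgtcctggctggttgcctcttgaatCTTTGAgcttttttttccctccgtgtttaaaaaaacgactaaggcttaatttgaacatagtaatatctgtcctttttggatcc
Ctnnb1 region in Ulk4: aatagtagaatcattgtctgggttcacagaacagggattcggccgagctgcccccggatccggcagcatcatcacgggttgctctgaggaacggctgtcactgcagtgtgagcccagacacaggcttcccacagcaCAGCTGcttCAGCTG
Lef1 far upstream: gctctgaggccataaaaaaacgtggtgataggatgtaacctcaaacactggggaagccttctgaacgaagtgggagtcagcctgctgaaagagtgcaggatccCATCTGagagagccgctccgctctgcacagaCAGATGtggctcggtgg
Lef1 near upstream: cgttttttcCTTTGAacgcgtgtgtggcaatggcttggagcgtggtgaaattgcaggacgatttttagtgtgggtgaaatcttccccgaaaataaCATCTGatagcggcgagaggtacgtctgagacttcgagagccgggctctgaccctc
Axin2 upstream: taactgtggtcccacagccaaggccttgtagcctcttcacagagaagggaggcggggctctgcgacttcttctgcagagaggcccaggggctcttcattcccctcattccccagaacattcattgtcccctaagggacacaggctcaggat
Axin2 downstream: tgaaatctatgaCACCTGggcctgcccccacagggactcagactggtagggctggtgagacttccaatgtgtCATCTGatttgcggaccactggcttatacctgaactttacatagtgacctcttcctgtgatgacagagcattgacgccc
The Tcf7l2 downstream window held both motifs, with CAGCTG at bases 23 to 28 and CTTTGA at bases 69 to 74. The Ctnnb1 window ended in 2 copies of CAGCTG. The Axin2 upstream window held neither motif. Over all 36 regions CTTTGA lay within 75 bp of the centre in 2 regions, against 8.21% of all consensus regions, CAGCTG in 4 against 12.9%, and CANNTG in 18 against 49.2%. Counted over whole regions, 16 of 36 held CTTTGA, against 44.5% of all. These shares describe the letters and do not show binding.

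Accessibility was first compared in the authors' mean log2 normalised reads of each genotype, which come as 1 value per genotype and so carry no test. Of the 36 regions, 7 were lower in Tcf4 cKO by more than 0.5, where 12.6% of all regions were, and 4 were higher by more than 0.5, where 8.38% were. Past 1, 1 was lower (4.18% of all) and 2 were higher (2.87%). The median difference (Tcf4 cKO minus WT) was -0.06 over the 36 regions and -0.10 over all 32120. As shares of the 36 the counts were 19.4% lower and 11.1% higher past 0.5, and 2.78% and 5.56% past 1. The median lay near that of all regions, and large differences in both directions were found among all regions too. Of the regions past 0.5, the lower ones belonged to Tcf7l2 (3 regions), Ctnnb1 (3) and Lef1 (1), and the higher ones to Axin2 (2), Tcf7l1 (1) and Tcf7l2 (1). The members nearest the threshold were the Ctnnb1 region at -62.4 kb from the gene start, at -0.50 just outside it, and the Tcf7l2 region at 96.5 kb, at 0.50 just inside it.

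**Figure D1:**
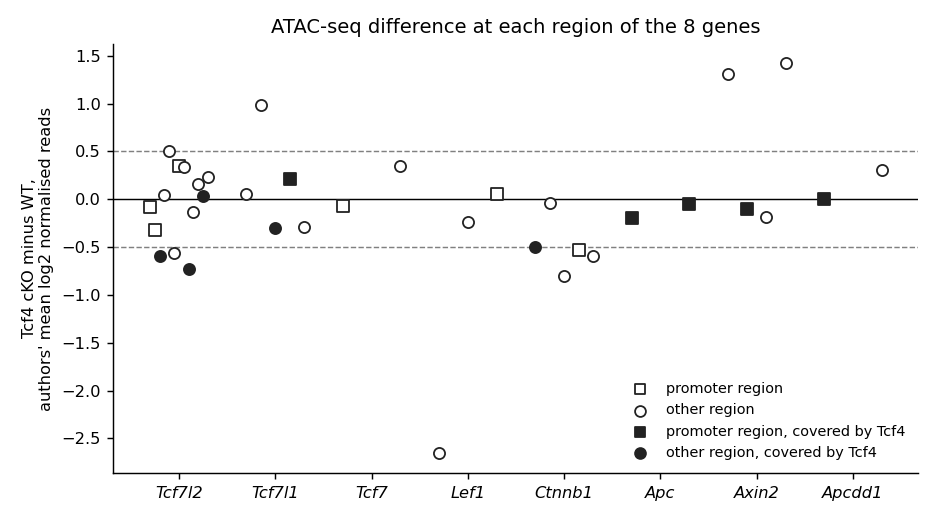
Difference in ATAC-seq signal (Tcf4 cKO minus WT, authors' mean log2 normalised reads) at each of the 36 regions, grouped by gene, with promoter regions as squares and regions covered by Tcf4 peaks filled. Most points lie between the dashed lines at -0.5 and 0.5. The lowest is the far upstream region of Lef1 at -2.66, and the 2 highest are intergenic regions of Axin2 at 1.31 and 1.42.

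A second measure allowed a test between libraries. For each region with a peak in all 4 ATAC-seq libraries, the highest MACS2 fold enrichment (the peak's pileup over its local background) was compared on the log2 scale with limma, after each library was centred on its median, and p-values were adjusted over all 30379 regions tested. Of the 36 regions 32 entered the fit. The other 4 lacked a peak in at least 1 Tcf4 cKO library. At an adjusted p under 0.05, 1 region fell (1.64% of all tested did) and 1 rose (1.56%). At an unadjusted p under 0.05 there were 6 of 32, against 14.2% of all tested. Both calls are fragile and are given below with their range over the alternative settings.

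Tcf7l2 had the most regions, 13, over a gene of 192.0 kb at chr19:55741820-55933654 and the intergenic space beyond its 3′ end. The region at its start (-0.3 kb) was open in all libraries, with fold enrichments of 5.04 and 4.37 in WT and 4.09 and 4.42 in Tcf4 cKO. Its authors' mean was 7.62 in WT and 7.54 in Tcf4 cKO. The limma difference was -0.05 (SE 0.17, adjusted p = 0.958), and the libraries of the genotypes overlapped.
The intronic region at 15.1 kb had fold enrichments of 5.46 and 5.59 in WT and 4.23 and 4.39 in Tcf4 cKO. Both Tcf4 cKO libraries lay below both WT libraries, as they also did at 46.8 kb (6.82 and 7.14 against 5.95 and 6.02). With 2 libraries against 2 such a gap carries no test. Here and below, the share of all regions with such a gap is not given. At 46.8 kb the authors' means went the other way, at 6.85 in WT and 6.90 in Tcf4 cKO, a difference of 0.05. The limma difference at 46.8 kb was -0.13 (SE 0.19, adjusted p = 0.873). The authors' means at 15.1 kb were 6.70 and 6.11, a difference of -0.59. The limma difference of -0.27 (SE 0.17) did not pass (adjusted p = 0.553). H3K27ac was called there in the 2 WT libraries alone (3.63 and 4.5), and Tcf4-tag peaks (6.07 and 5.8) covered 99.3% of it.
The region downstream of the gene, at 209.9 kb from its start, repeated this arrangement. ATAC-seq peaks reached 5.22 and 6.12 in WT and 4.75 in 1 Tcf4 cKO library, with none in the other. The authors' means were 6.98 and 6.26, a difference of -0.73. H3K27ac peaks (4.1 and 3.44) were again found in the 2 WT libraries alone, and Tcf4-tag peaks of 4.86 and 4.85 covered 74.1% of the region.
The other lower Tcf7l2 region, in an intron at 101.7 kb where it overlaps an exon of Ppnr, differed by -0.57 and had peaks of 5.65 and 6.25 in WT and 4.48 in 1 Tcf4 cKO library. It carried no mark and no Tcf4 peak. The internal promoter at 153.8 kb went the other way, with 5.86 and 8.33 in WT and 8.73 and 8.88 in Tcf4 cKO. Its authors' difference was 0.35 and its limma difference 0.42 (SE 0.18, adjusted p = 0.214). The most open regions of the gene, at 287.8 and 320.5 kb, differed by 0.03 and 0.24 in the authors' means, with enrichments of 8.39 to 12.1 in the 4 libraries.

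Tcf7l1, whose product acts mainly as a repressor of Wnt targets, had 5 regions. Its promoter (chr6:72788128-72789776) was open in all 4 libraries, with 8.91 and 8.76 in WT and 7.74 and 7.69 in Tcf4 cKO. The authors' means there were 8.67 and 8.88, so that the 2 measures differed in direction, and the limma difference of -0.11 (SE 0.17) did not pass (adjusted p = 0.891). The region that stood apart was intronic, at 104.0 kb, with authors' means of 5.13 in WT and 6.11 in Tcf4 cKO, a difference of 0.98. Its peaks were 4.2 and 6.79 in WT and 6.07 and 6.55 in Tcf4 cKO, so the genotypes overlapped, and the limma difference was 0.33 (SE 0.19, adjusted p = 0.478). H3K27ac was called there in the 2 Tcf4 cKO libraries alone (3.89 and 3.02). An intronic region at 20.2 kb, with ATAC-seq peaks of 9.16 to 11.1, was covered to 61.7% by Tcf4 and differed by -0.30.
Tcf7, an effector with short repressive and long activating isoforms, had 2 regions, and neither passed 0.5. Its promoter had peaks of 5.99 and 6.78 in WT and 7.33 and 7.09 in Tcf4 cKO, and the authors' difference was -0.07. No library of H3K4me1, H3K27ac or H3K27me3 had a peak at this promoter, a state found at 2.14% of promoter regions.

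Lef1, an effector that mainly activates targets together with beta-catenin, had 3 regions and the largest difference of the group. The region at -94.1 kb (chr3:131016079-131016741), intergenic, had ATAC-seq peaks of 7.52 and 6.63 in the WT libraries and none in either Tcf4 cKO library. It was the only one of the 36 regions present in 1 genotype alone, where 1.02% of all regions were present in WT alone and 0.56% in Tcf4 cKO alone. The authors' means were 5.91 in WT and 3.26 in Tcf4 cKO, a difference of -2.66. H3K4me1 followed the same pattern, with peaks of 4.06 and 3.8 in WT and none in Tcf4 cKO. One Tcf4-tag library of 2 had a peak there, at 3.65. The region could not enter the limma fit, which needs a peak in all libraries. Its difference therefore carries no test.
At the Lef1 promoter itself (chr3:131111092-131112592) accessibility was 3.54 and 4.25 in WT and 4.55 and 5.04 in Tcf4 cKO, with a limma difference of 0.39 (SE 0.16, adjusted p = 0.195) and an authors' difference of 0.06. H3K27me3 and H3K4me1 were both called here in all 4 libraries of each mark, a combination found at 8.67% of promoter regions. The H3K27me3 region spanned 7.57 kb over the gene start, with enrichments of 1.73 and 1.68 in WT and 1.75 and 1.63 in Tcf4 cKO. The region at -25.3 kb carried the same 2 marks in every library, with H3K4me1 at 4.6 and 4.36 in WT and 5.6 and 6.3 in Tcf4 cKO (limma difference 0.43, SE 0.21, adjusted p = 0.664). H3K27ac appeared at these 2 regions in 1 Tcf4 cKO library of 2.

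Ctnnb1 had 5 regions, all lower in Tcf4 cKO in the authors' means, from -0.04 to -0.80, and 3 past 0.5. Most regions of the genome were lower as well, since a difference of 0.002 (at the Apcdd1 promoter) stood at the 63.7th percentile of all regions. The Ctnnb1 region at -0.04 stood at the 58.6th percentile, above the median of all regions. The promoter region (chr9:120933153-120934834), which lies 4.8 kb inside the gene as annotated, had peaks of 7.96 and 5.92 in WT and 5.08 and 5.82 in Tcf4 cKO. WT replicate 1 stood above the other 3 libraries, and without it the limma difference went from -0.25 to 0.03. The authors' difference was -0.53.
The region in the Ulk4 intron, at 69.6 kb, gave the fall called by limma. Its peaks were 5.31 and 5.33 in WT and 3.9 and 3.0 in Tcf4 cKO, a difference of -0.55 (SE 0.16, adjusted p = 0.0452). H3K27ac was called in the 2 WT libraries alone (3.21 and 3.01). The adjusted p ranged from 0.0317 to 0.562 over the alternatives that could be fitted, and the call was lost without either WT library or without Tcf4 cKO replicate 2, at 0.305, 0.223 and 0.562.
The intergenic region at -52.5 kb had peaks of 6.6 and 7.48 in WT and 3.68 in 1 Tcf4 cKO library, with an authors' difference of -0.80 and no mark or Tcf4 peak. The region at -62.4 kb, in an exon of the noncoding gene Gm19385, was covered to 79.0% by Tcf4. At -59.4 kb H3K27me3 was called in the 2 WT libraries alone (1.88 and 1.88) and H3K4me1 in the 2 Tcf4 cKO libraries alone (3.04 and 2.81), and the authors' ATAC-seq difference was -0.04. These distal regions belong to Ctnnb1 only by the nearest-gene annotation. The same holds for the Lef1 region at -94.1 kb, the Axin2 region at 53.5 kb and the Tcf7l2 regions at 287.8 and 320.5 kb.

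**Figure D2:**
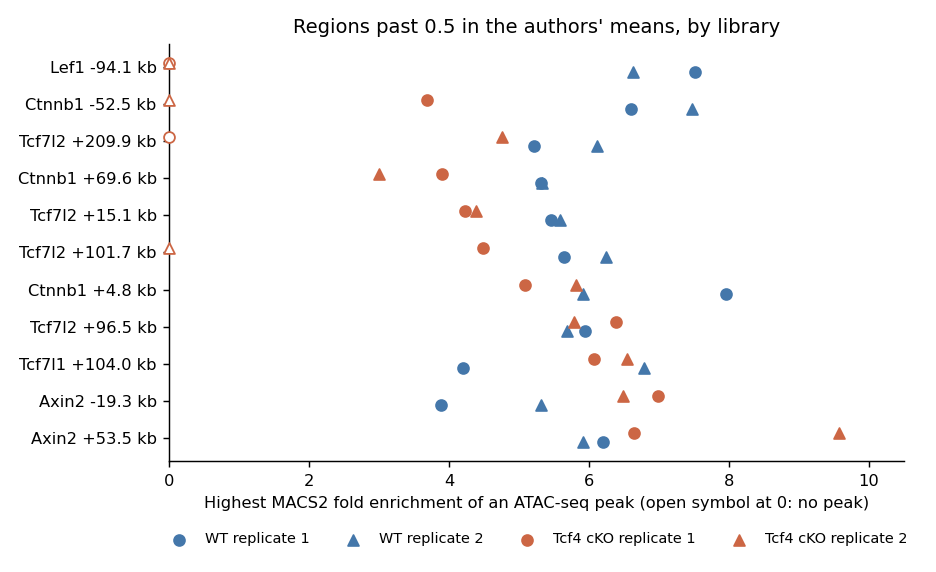
Highest MACS2 fold enrichment of an ATAC-seq peak in each library at the 11 regions past 0.5 in the authors' means, named by gene and distance of the region's centre from the gene start, with open symbols at 0 where the library has no peak. The Lef1 region at -94.1 kb has no peak in either Tcf4 cKO library. At Axin2 -19.3 kb and 53.5 kb both Tcf4 cKO libraries lie above both WT libraries, and at Tcf7l1 104.0 kb and Tcf7l2 96.5 kb the genotypes overlap.

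Axin2, the feedback scaffold, was the only gene of the group with 2 regions higher in Tcf4 cKO by more than 0.5, and both also passed 1. The upstream region at -19.3 kb (chr11:108900752-108901291) had fold enrichments of 3.89 and 5.32 in WT and 6.99 and 6.49 in Tcf4 cKO. It rose by 0.66 on the log2 scale in limma (SE 0.19, adjusted p = 0.0345), and its authors' means were 4.27 and 5.58, a difference of 1.31. H3K4me1 was called here in all 4 libraries, with 4.27 and 5.28 in WT and 3.5 and 4.3 in Tcf4 cKO, and no library had H3K27ac, H3K27me3 or Tcf4 peaks. The adjusted p ranged from 0.0301 to 0.347 over the alternatives that could be fitted, and the call was lost when any single library was left out, at 0.347 and 0.16 without WT replicates 1 and 2, and 0.143 and 0.0618 without Tcf4 cKO replicates 1 and 2.
The region beyond the 3′ end of the gene, at 53.5 kb (chr11:108973380-108974400), had peaks of 6.2 and 5.91 in WT and 6.65 and 9.58 in Tcf4 cKO. Both Tcf4 cKO libraries lay above both WT libraries, 1 of them by a wide margin. The authors' means were 5.63 and 7.05, a difference of 1.42, and the limma difference of 0.49 (SE 0.19) did not pass (adjusted p = 0.168). H3K4me1 and H3K27ac were called there in all 4 libraries, and each Tcf4-tag library had a peak (4.32 and 5.21), but the 2 peaks did not overlap each other.
The Axin2 promoter (chr11:108920054-108922268) was open at 5.77 and 5.79 in WT and 5.26 and 5.28 in Tcf4 cKO, with an authors' difference of -0.11 and a limma difference of -0.04 (SE 0.18, adjusted p = 0.966). It held 4 copies of CTTTGA, at 78, 441, 883 and 903 bases from the gene start, more than any other region of the group. It was also the widest region of the group, at 2215 bases, and the count was not scaled by width. Tcf4-tag peaks of 4.66 and 4.83 covered 32.0% of it, just past the 30% used as the limit. It held 2 H3K27ac peaks. The one at the gene start (chr11:108920391-108921015), under the peak shared by both tag libraries, was called in the 2 WT libraries alone (4.06 and 3.88), and the one behind it (chr11:108921286-108922258) in all 4 (3.09 and 3.46 in WT, 3.36 and 3.12 in Tcf4 cKO). The intronic region at 13.6 kb had 6.85 and 6.15 in WT and 4.31 and 4.63 in Tcf4 cKO. Both Tcf4 cKO libraries lay below both WT libraries here, with a limma difference of -0.45 (SE 0.18, adjusted p = 0.203), but the authors' difference was only -0.19.

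Apc and Apcdd1 differed least. The 2 Apc regions, both at annotated start sites, had authors' differences of -0.20 and -0.05, and ATAC-seq peaks of 7.0 to 9.12 in the 4 libraries. H3K27ac (4.19 to 5.7) was called at both in all 4 libraries, and Tcf4 covered at least 65.6% of each. The Apcdd1 promoter had means of 9.33 in both genotypes, peaks of 8.89 and 9.02 in WT and 9.39 and 9.48 in Tcf4 cKO, and a Tcf4 cover of 58.4%. Its second region, over an exon of the gene, differed by 0.31. The limma differences at these 4 regions ran from 0.02 to 0.17, and no adjusted p was below 0.746.

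Tcf4 occupancy was counted where peaks found in both tag libraries covered at least 30% of a region. This held for 10 of the 36 regions, against 36.3% of all consensus regions, and for 5 of the 11 promoter regions, against 53.4% of all promoter regions. The covered promoters were those of Apc (both), Apcdd1, Axin2 and Tcf7l1. The covered regions away from promoters were 3 of Tcf7l2, 1 of Tcf7l1 and 1 of Ctnnb1. No region of Tcf7 or Lef1 was covered. Of the 10 covered regions 2 were lower in Tcf4 cKO by more than 0.5, both of Tcf7l2, where 13.7% of all covered regions were, and none was higher. The 2 tag libraries differed in their number of peaks, and the longer list alone covered 21 of 36 regions (58.7% of all regions) and the shorter one 7 (32.8%). No library without antibody was used here, so the share of open regions that would be called without Tcf4 is not known.

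H3K27ac was called in all 4 libraries at 6 of 11 promoter regions, against 68.0% of all promoter regions: both of Apc and those of Apcdd1, Axin2, Tcf7l1 and Tcf7l2 (the one at 2.0 kb). H3K27me3 was called in all 4 libraries at 1 of 11, that of Lef1, against 12.8%. Over all 36 regions H3K27ac was called in all 4 libraries at 11, against 39.5% of all regions, and H3K4me1 at 12, against 43.7%. H3K27ac was called in both libraries of WT alone at 3 regions (3.55% of all), the 2 Tcf7l2 regions and the Ctnnb1 region in Ulk4 described above, and in both of Tcf4 cKO alone at 1 (1.35%), the Tcf7l1 region at 104.0 kb. H3K4me1 was called in both of WT alone at 1 region (0.95%), that of Lef1 at -94.1 kb, and in both of Tcf4 cKO alone at 1 (5.42%), that of Ctnnb1 at -59.4 kb. H3K27me3 was called in both of WT alone at this Ctnnb1 region (1.72%) and at none in both of Tcf4 cKO alone (1.34%). No peak of any mark in any library was found at 6 of 36 regions, against 4.82%, namely 3 intronic Tcf7l2 regions, the Tcf7 promoter, the Ctnnb1 region at -52.5 kb and the Axin2 intronic region. In limma on the peaks of each mark, no member region passed for H3K4me1 (20 tested, 3 at an unadjusted p under 0.05, against 7.22% of all tested), for H3K27ac (17 tested, 0 against 6.61%) or for H3K27me3 (4 tested, 0 against 19.4%). Over all regions limma called 1 of 26103 for H3K4me1 (0.00383% fell, 0.0% rose) and none of 13799 for H3K27ac (0.0%), while 0.987% fell and 3.17% rose for H3K27me3, so that for the first 2 marks the fit called almost nothing anywhere. A mark peak that is missing from a list fell under the caller's threshold and need not be absent.

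**Figure D3:**
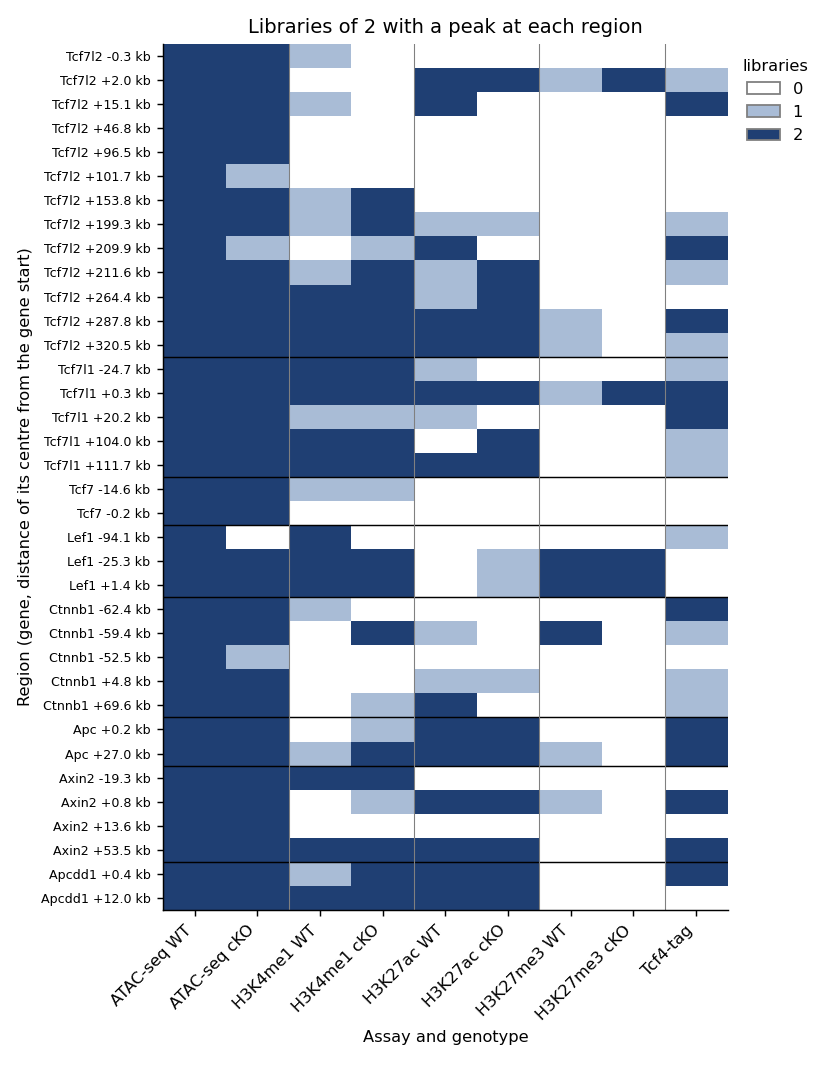
Number of libraries, of 2, with a peak at each of the 36 regions (rows, by gene and distance of the region's centre from the gene start) for each assay and genotype (columns), from white for 0 to dark for 2. Lef1 at -25.3 and 1.4 kb is dark for H3K4me1 and H3K27me3 in both genotypes, and Tcf7l2 at 15.1 and 209.9 kb is dark for H3K27ac in WT, white in Tcf4 cKO and dark for the Tcf4 tag.

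Summed over each gene body and 20 kb on each side, the length covered by ATAC-seq peaks was lower in both Tcf4 cKO libraries than in both WT libraries for 2 of the 8 genes, as it was for 25.7% of genes, and higher for none (7.38%). These were Tcf7l2, with 11.2 and 13.5 kb in WT and 8.79 and 10.7 kb in Tcf4 cKO, and Lef1, with 2.65 and 4.88 kb in WT and 2.46 and 1.71 kb in Tcf4 cKO. Divided by each library's total covered length, 1 gene was lower, Lef1, and 2 were higher, Tcf7l1 and Ctnnb1, and with a -log10 q of at least 5 Lef1 was lower and Axin2 higher. With 100 kb on each side Tcf7l2 was lower and Apcdd1 higher, so no gene was called under every one of these settings. H3K4me1 length was higher in Tcf4 cKO without overlap for 4 genes, Tcf7l2, Tcf7l1, Lef1 and Apc, as for 44.6% of genes, and lower for none (3.69%). At Tcf7l2 it was 4.34 and 4.43 kb in WT and 8.18 and 7.62 kb in Tcf4 cKO, the widest gap of the group. The Tcf4 cKO H3K4me1 libraries held more peaks in all. Divided by each library's total covered length, the H3K4me1 length was higher without overlap for 3 genes, Tcf7l2, Tcf7l1 and Apc, and no longer for Lef1. The share of all genes under this scaling, or under the other settings named for ATAC-seq, is not given here. Whether these genes stand out from the rest after scaling is therefore not known. H3K27ac length was higher for Tcf7l1 (4.56 and 3.46 against 6.14 and 4.78 kb) and Tcf7 (0.252 and 0.315 against 0.466 and 1.36 kb), as for 9.48% of genes, and lower for Apc (3.6 and 3.68 against 3.15 and 3.2 kb), as for 21.9%. At Tcf7 the peak found in all libraries (chr11:52231631-52232843) was cut by the edge of the window, and the consensus region there is annotated to Skp1. Tcf4 cKO replicate 2 had 3 peaks in the window, and each other library had this 1 alone. H3K27me3 length was lower for Apc alone, as for 14.9% of genes. Each WT library had a single small peak there, at different sites, chr18:34247673-34248433 in replicate 1 and chr18:34330718-34331151 in replicate 2. No peak was shared by the WT libraries, and neither Tcf4 cKO library had one. Lef1 had by far the most H3K27me3, 8.46 and 9.75 kb in WT and 6.45 and 8.75 kb in Tcf4 cKO, and its covered share lay between the 84.9th and 91.9th percentile of all genes. With 2 libraries against 2, an exact permutation test cannot give a two-sided p below 0.333, so these lengths carry no test.

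**Figure D4:**
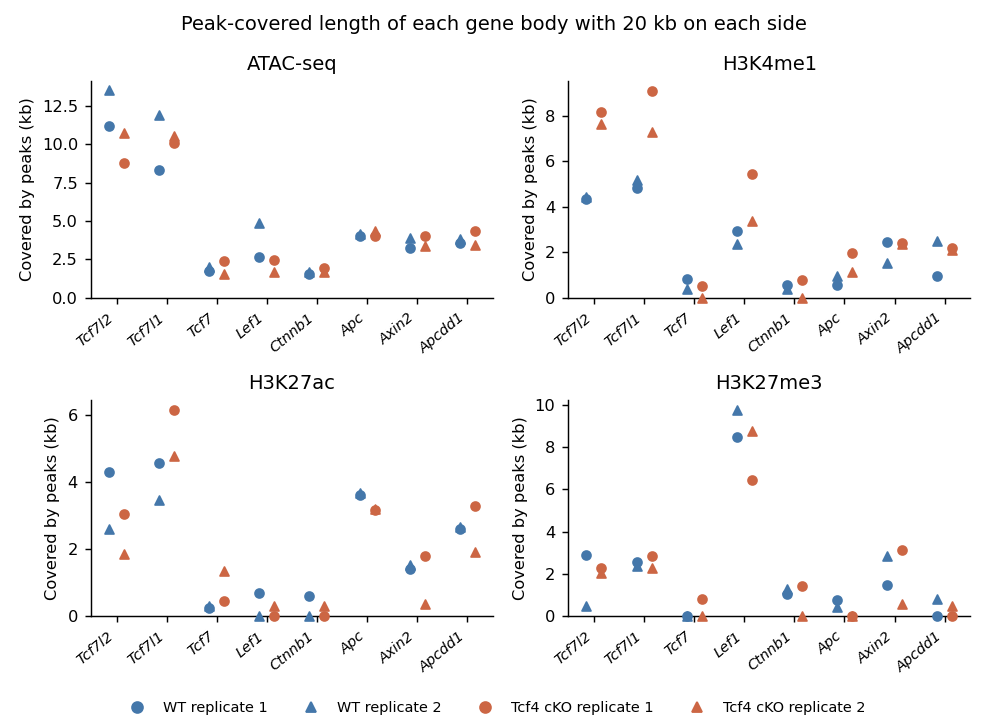
Length covered by peaks (kb) in each gene body with 20 kb on each side, for the 4 assays, with WT libraries in blue and Tcf4 cKO libraries in orange. H3K4me1 at Tcf7l2 is 4.34 and 4.43 kb in WT and 8.18 and 7.62 kb in Tcf4 cKO, and H3K27me3 is highest at Lef1 in both genotypes.

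The footprint table asked whether the TCF/LEF sites themselves were differently protected. Footprint scores combine the depth of the protected notch with the accessibility around it, averaged over all sites of a motif in 1 merged alignment per genotype. The 6 TCF/LEF motifs scored 0.193 to 0.209 in WT, in the lower part of all motifs (14.4th to 27.7th percentile). In Tcf4 cKO they scored 0.193 to 0.208. The differences ran from -0.00071 for Lef1 (MA0768.2) to 0.00103 for Tcf7 (MA0769.1), with 3 motifs higher and 3 lower, beside a median of -0.0005 and a range of -0.0452 to 0.0263 over all 1205 motifs. In rank they stood at the 48.5th to 59.8th percentile, near the middle. Sites called bound were 5.54% to 6.64% of all sites in WT and 5.65% to 6.64% in Tcf4 cKO. The motifs resemble each other, so the 6 values are not independent, and no library-level spread is known for them.

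**Figure D5:**
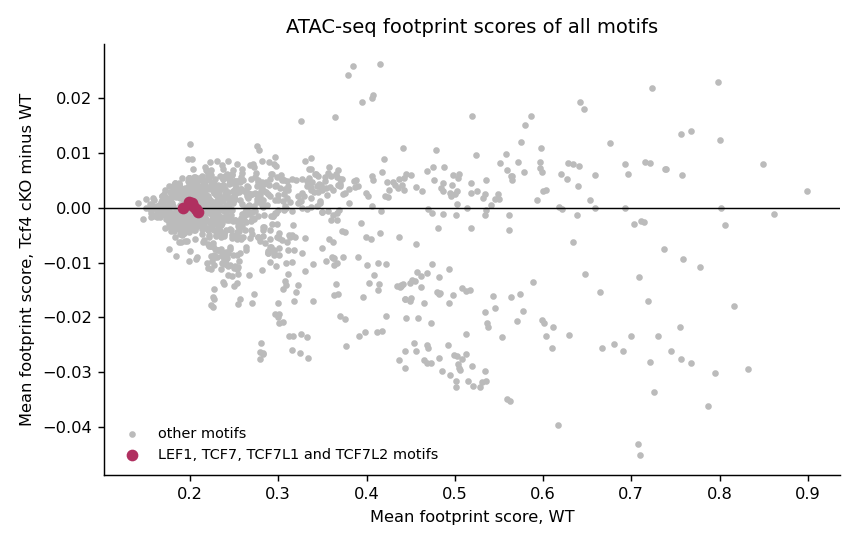
Difference in mean footprint score (Tcf4 cKO minus WT) against the WT score for all 1205 motifs, with the 6 TCF/LEF motifs in red. The TCF/LEF motifs sit at low scores, between 0.193 and 0.209, and within 0.00103 of 0, while other motifs reach -0.0452 and 0.0263.

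The rest of the pathway was read from a list of 100 genes, of which 87 had a consensus region, 206 regions in all. In the authors' means 19 regions were lower by more than 0.5 (9.22%, against 12.6% of all regions) and 20 higher (9.71%, against 8.38%), and the median difference was -0.07. Limma called 3 of 200 tested regions lower and 3 higher, 1.5% each, against 1.64% and 1.56% of all regions tested. These calls come from the main fit and are fragile. Without centring limma called 0 of all 30379 regions (lowest adjusted p = 0.129), so none of them held under that setting. The ligands (41 regions), the extracellular inhibitors and the nuclear cofactors had no call. Among receptors, a region of Lgr4, an R-spondin receptor, fell (7.92 and 8.18 in WT, 4.90 and 4.23 in Tcf4 cKO, difference -0.73, SE 0.19, adjusted p = 0.0168). A region upstream of Lgr5, its relative and a Wnt target, rose (3.77 and 4.19 against 7.25 and 7.09, difference 0.94, SE 0.18, adjusted p = 0.0013), whereas another Lgr5 region had peaks of 5.70 and 7.53 in WT and none in Tcf4 cKO. Csnk1a1, the priming kinase of the destruction complex, had a region that fell by 0.56 (SE 0.15, adjusted p = 0.0225).
Of the targets, a region of Myc rose by 0.92 (SE 0.20, adjusted p = 0.0042) and one of Ccnd1 by 0.74 (SE 0.18, adjusted p = 0.0112). One region of Id2 fell by 0.66 (SE 0.18, adjusted p = 0.0303), and another had authors' means of 4.80 in WT and 7.25 in Tcf4 cKO, the largest difference on the list at 2.45. The distance from the start site was -294420 bp for Myc, -53627 bp for Ccnd1, and -117601 and -143689 bp for Id2. Distal regions of the list belong to their genes only by the nearest-gene annotation. Among the inhibitors, a region of Sfrp1, a secreted Wnt antagonist, had no peak in WT and 8.12 and 6.84 in Tcf4 cKO (authors' means 4.06 and 5.51). Among the receptors, a region of Fzd4 that Tcf4 covered to 69.8% had an authors' difference of -1.45 and a limma difference of -0.52 (SE 0.16, adjusted p = 0.058). The other regions past 1 belonged to the ligand genes Wnt7a (authors' difference 1.10, adjusted p = 0.748 in limma) and Wnt8b (1.01, adjusted p = 0.103) and to the target Tnfrsf19 (1.06, adjusted p = 0.513). Of 38 target regions 5 were lower by more than 0.5 (13.2%, against 12.6% of all regions) and 6 higher (15.8%, against 8.38%).

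In the covered share of gene body and flanks, ranked among all genes in each of the 18 libraries, the gene most like each member was Mvb12b for Tcf7l2 (mean rank difference 5.46 percentile points), Timmdc1 for Tcf7l1 (5.04), Zfp408 for Tcf7 (7.4) and Ebf1 for Lef1 (5.96). For the others it was Tmprss4 for Ctnnb1 (7.6), Drg1 for Apc (4.33), Cdh22 for Axin2 (7.35) and Ubxn2a for Apcdd1 (6.19). No member was the nearest gene of another.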

How the data were processed

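Peaks and tables were used as deposited. Per the study's methods, the authors trimmed reads with TrimGalore, aligned them to mm10 with Bowtie 2, removed duplicates with Samtools and called peaks per library with MACS2, broad ones for H3K27me3. From the peak lists came the fold enrichment, a ratio over the local background that the authors deposited with its -log10 q-value. The deposited consensus table gave the authors' mean log2 normalised reads of each genotype (DiffBind), annotated by ChIPseeker with a promoter window of 1 kb. The deposited footprint table gave the authors' mean TOBIAS score per motif. The columns of the authors' own fold changes and p-values were not used.

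The 8 genes, the pathway list and the markers were chosen with earlier results of these data known. Regions are named where limma called them, where they passed 0.5 in the authors' means, were present in 1 genotype alone, were covered by Tcf4 or lay at a start site. Of the pathway list, genes are named where limma called a region, or among the 10 largest differences past 1. Genes most like a member had the smallest mean absolute difference of percentile ranks over the libraries.

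Of the samples, 18 libraries had a file, and the single-cell RNA-seq was not analysed here. For limma 3.58.1 (R 4.3.3) the peaks of a mark were merged across libraries, the log2 of the highest fold enrichment per region was centred on each library's median, eBayes was run with trend, and p-values were adjusted by Benjamini and Hochberg over all regions. ATAC-seq used the consensus regions. The scripts (Python 3.11.15, pandas 2.3.3, pysam 0.24.0) were tested on simulated data. There the limma fit recovered most changes of 4-fold but, in ATAC-seq, H3K4me1 and H3K27ac, none of 2-fold. A difference that did not pass is therefore not shown to be absent. The spreads of the regions were shuffled in the simulation, so it does not give the power of the fit at a given region. The 2 member regions called in ATAC-seq, at 0.66 and -0.55 on the log2 scale, changed by less than 2-fold, so the simulation does not match the real fit in this. Sequences came from GRCm38, whose chromosome lengths hold every peak, and genes from GENCODE on the same build. In the RefSeq promoter table (GRCm38.p6) 12 promoters of 6 members matched and 1 held CTTTGA, against 16.0% of all.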

Additional observations from a re-analysis of the deposited data

How the results depend on the processing

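Peak lists limit every statement here: read depth is unknown, each group has 2 libraries, and a peak below the caller's threshold is missing rather than 0. The count of called regions moved under most settings in ATAC-seq, stayed at 0 under all settings in H3K4me1 and H3K27ac, and moved under 1 in H3K27me3. Over all regions the ATAC-seq fit called 497 lower and 473 higher, 348 and 288 with quantile normalization, and 0 and 0 without centring. With a -log10 q of at least 5 it called 116 and 120 of 27928. In ATAC-seq limma called 2 member regions, and 0 with quantile normalization, without centring or with a -log10 q of at least 5. It called 1 with missing peaks at the floor, which was the far upstream Lef1 region with its Tcf4 cKO values imputed, and 0 to 1 when a library was left out. With the replicate block it called 2, at adjusted p values of 0.0301 for Axin2 and 0.0395 for Ctnnb1. Libraries of the same number did not deviate together (correlations of -0.007 in ATAC-seq, 0.003 in H3K4me1, 0.027 in H3K27ac and 0.015 in H3K27me3), so the numbers were not taken as pairs. In H3K27me3 it called 0, and 0 to 1 when a library was left out, the 1 being a Tcf7l2 region without WT replicate 2 (adjusted p = 0.016). The limma difference at the Ctnnb1 promoter was -0.25 and turned to 0.029 without WT replicate 1, with a range of -0.528 to 0.029 when a library was left out.

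Centring the authors' means left 7 regions past 0.5 (3 lower and 4 higher) in place of 11, a threshold of 1 left 3, and regions within 100 kb of the gene body gave 17 of 66. Regions present in 1 genotype alone numbered 2 with a -log10 q of at least 5, and 1 to 3 when a library was left out, all in WT. The genes whose covered length did not overlap numbered 3 to 7 for ATAC-seq, 5 to 7 for H3K4me1, 3 to 6 for H3K27ac and 2 to 6 for H3K27me3 when a library was left out, since 1 library against 2 overlaps less often. With 100 kb on each side they numbered 7 for H3K4me1 and 2 for H3K27me3. With a -log10 q of at least 5 they numbered 2 for H3K4me1, and over the gene body alone 1 for H3K27ac and 2 for H3K27me3. Shares over all genes are not given for these counts. Regions covered by Tcf4 numbered 21 with peaks of either library and 7 to 21 when a tag library was left out. Of the TCF/LEF motifs 5 were higher in Tcf4 cKO by centred log2 ratio, against 3 by difference, and CTTTGA was found in 5 regions within 150 bp of the centre and in 16 over the whole region. The other causes were not tested. Of 173 values under other settings, 123 kept their call or stayed near the main value. Of these 123, 73 were differences at single regions, most of them at regions not called in the main fit that stayed uncalled. Counts that stayed at 0 also entered the 123. The Axin2 and Ctnnb1 calls in ATAC-seq were each lost under most settings, so the tally does not measure how well they held.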
